A study of Rattus norvegicus with 22 samples.

Results

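The genes described here encode 6 enzymes of cholesterol synthesis: Acat2, Idi1, Sqle, Msmo1, Nsdhl and Dhcr7. The genes were picked with earlier results of these data known, so their counts of calls are descriptions of chosen genes. Every probe set annotated with 1 of these symbols alone was taken. This gave 7 of the 15866 probe sets tested, 2 for Idi1 (1368878_at and 1388872_at) and 1 each for Acat2 (1372462_at), Sqle (1387017_at), Msmo1 (1368275_at), Nsdhl (1392604_at) and Dhcr7 (1368189_at). All 7 had a value on all 22 arrays, and none was removed by a filter.

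The arrays measured total RNA of tissue from pregnant Wistar rats and their offspring, 1 array per sample. The dams received retinoic acid at 12 mg/kg/day, EMD 82571 at 50 mg/kg/day (EMD50) or 150 mg/kg/day (EMD150), or vehicle (control). Retinoic acid is a vitamin A derivative known for causing malformations, and EMD 82571 is a calcium sensitiser, named MSC1096199 in the design text. Samples fell into 5 strata of tissue and gestational day: maternal liver of day 12 and of day 20, embryo liver of day 20, embryo bone of day 20, and whole embryo of day 12. Each stratum held 1 array per treatment, and both day 12 strata held 1 more retinoic acid array. The titles code 1 retinoic acid array of each day 12 stratum as RA5 and the other 5 retinoic acid arrays, those of day 20 included, as RA56, and do not say what the codes stand for. The 7 were fitted as 1 group, and values without the 2 RA5 arrays, an alternative chosen after seeing the data, stand beside the calls. Dosing was daily from gestational day 6. The protocol names day 11 and day 17 as the last days, in wording that could refer to the compounds or to the days of sampling, and the design text names day 17 alone. Ages of the dams, pooling of animals, and whether samples share a dam or litter are not stated, so the spread between arrays may be partly technical. Comparisons over strata take the strata as the repeats of a treatment. Their p-values assume that samples of different strata are independent, which cannot be checked here. The values are log2 probe set values, on which a difference of 1 is 2-fold. In whole tissue, fewer cells of a type and less RNA per cell cannot be told apart.

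Cholesterol is built from acetyl-CoA by way of mevalonate and isoprenoid units that are joined into squalene, which is oxidised, closed into a ring system and then trimmed in the endoplasmic reticulum. When sterol in that membrane is low, the transcription factor SREBP-2, encoded by Srebf2, is released and raises transcription of the enzymes. It is known to act together with NF-Y, which binds the letters CCAAT, and Sp1, which binds GC-rich boxes. The liver is a main site of synthesis, and the embryo also needs its own synthesis: inherited loss of late enzymes, DHCR7 among them, causes malformation syndromes in humans.

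The order of the 6 enzymes along the pathway is as follows. Acat2 is the cytosolic thiolase that joins acetyl-CoA units at the start. Idi1 interconverts the isoprenoid building blocks isopentenyl and dimethylallyl diphosphate. Sqle oxidises squalene, the first oxygenation of the pathway. Msmo1 oxidises the methyl groups at carbon 4 of the sterol, and Nsdhl then takes part in their removal. Dhcr7 reduces 7-dehydrocholesterol to cholesterol.

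Promoters of 5 of the 6 genes were found in the RefSeq promoter table of assembly GRCr8; for Sqle none is shown, and that of Acat2, which held no CCAAT, entered the motif counts and is not printed. The other 4 are printed because the letters differ between the genes, and a link of the letters to the array values was not tested. Each line holds the 250 bases before the start of the gene, 5′ to 3′ on the gene's strand, and capitals mark CCAAT or its reverse complement ATTGG. The Nsdhl window lies at chrX:155817110-155817359 on the plus strand, the Msmo1 window at chr16:29746863-29747112 on the plus strand, the Idi1 window at chr17:66547525-66547774 on the minus strand, and the Dhcr7 window at chr1:208444184-208444433 on the plus strand.
Nsdhl: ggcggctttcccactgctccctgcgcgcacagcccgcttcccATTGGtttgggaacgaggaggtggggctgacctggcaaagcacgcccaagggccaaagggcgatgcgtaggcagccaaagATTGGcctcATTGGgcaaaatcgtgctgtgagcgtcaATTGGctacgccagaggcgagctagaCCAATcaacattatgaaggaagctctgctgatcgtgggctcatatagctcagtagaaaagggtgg
Msmo1: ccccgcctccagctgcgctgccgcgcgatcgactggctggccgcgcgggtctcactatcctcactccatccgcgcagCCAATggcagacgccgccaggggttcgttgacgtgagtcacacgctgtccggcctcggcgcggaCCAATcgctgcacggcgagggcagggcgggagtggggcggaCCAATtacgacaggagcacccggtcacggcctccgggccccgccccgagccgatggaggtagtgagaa
Idi1: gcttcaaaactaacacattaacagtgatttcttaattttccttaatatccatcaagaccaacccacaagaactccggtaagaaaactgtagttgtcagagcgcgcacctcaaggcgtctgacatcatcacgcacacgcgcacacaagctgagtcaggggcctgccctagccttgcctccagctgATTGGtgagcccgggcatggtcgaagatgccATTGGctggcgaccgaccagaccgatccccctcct
Dhcr7: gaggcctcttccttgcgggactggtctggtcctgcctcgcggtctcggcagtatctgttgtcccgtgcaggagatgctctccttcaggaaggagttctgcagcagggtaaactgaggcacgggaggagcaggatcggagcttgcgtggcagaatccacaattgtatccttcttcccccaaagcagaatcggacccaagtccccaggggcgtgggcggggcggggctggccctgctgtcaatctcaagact
CCAAT was searched on both strands and was found 5 times upstream of Nsdhl, 3 times upstream of Msmo1, 2 times upstream of Idi1, and 0 times upstream of Dhcr7 and Acat2. Of 33469 promoters in the table, 34.0% held it at least once, 9.42% at least 2 times, 2.52% at least 3 times and 0.179% at least 5 times. The GC box GGGCGG was also searched on both strands, and it did not overlap a CCAAT match in these windows. It was found 3 times upstream of Msmo1, 2 times each upstream of Dhcr7 and Acat2, and 0 times upstream of Nsdhl and Idi1. Of all promoters, 30.5% held it at least once, 14.8% at least 2 times and 7.41% at least 3 times. The letters TCACNCCAC, a form of the sterol regulatory element with 1 free base, searched on both strands, were found in none of the 5 windows and in 0.974% of all promoters. A match of letters is a description of the sequence only, and an absent match says only that these letters are not in this window.

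No pair of arrays was identical. Array medians lay between 8.09 and 8.22. The tissue labels held against their markers: the mean of 12 hepatocyte probe sets was 12.81 to 13.10 in maternal liver and 12.65 to 12.77 in embryo liver, and 7.82 to 9.92 in the bone and whole embryo arrays. Several arrays stood apart in markers of other tissues. The mean of 10 acinar pancreas probe sets was 10.50 in the control and 9.77 in the EMD50 maternal liver of day 12 and 9.11 in the control maternal liver of day 20, and 7.49 to 7.75 in the other 6 maternal livers. The retinoic acid maternal liver of day 20 had a skeletal muscle mean of 10.30, against 8.07 in its control. Hepatocyte genes averaged 9.16 and 9.12 in the retinoic acid whole embryos against 8.04 in the control, and in embryo bone they averaged 9.81 in the retinoic acid array, 7.98 in EMD50 and 8.0 in EMD150, against 9.92 in the control. The retinoic acid bone array had a neural mean of 6.95, against 8.15 in the control, with 10 of 10 probe sets lower and 3 past 2-fold, while EMD50 and EMD150 bone had 8.31 and 8.55. The GAPDH 3′ minus 5′ difference, a sign of RNA integrity, was 2.72 in the EMD50 bone array and 0.57 to 0.86 in the other 21.

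Levels of the enzymes were compared between tissues first, with treatment as a term in the model. Most of the 6 genes were highest in maternal liver. Acat2 was highest in whole embryo, and Sqle did not differ beyond its spread between maternal liver of day 12 and embryo liver. Over the 10 pairs of strata and 7 probe sets, 50 of 70 differences passed limma's test at an adjusted p under 0.05. Of all probe sets, 4.47% to 72.9% were called in a pair, so differences between these tissues are common. The SD printed with these means is over the 4 or 5 arrays of a stratum, which differ in treatment.

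Nsdhl averaged 11.43 ± 0.03 in maternal liver of day 12, 11.05 ± 0.41 in maternal liver of day 20, 8.85 ± 0.65 in embryo liver, 7.66 ± 0.34 in whole embryo and 7.63 ± 0.22 in embryo bone (SD, n = 5, 4, 4, 5 and 4). The 2 ends of this order formed pairs that did not differ beyond their spread: the maternal livers with each other (adjusted p = 0.429, limma) and whole embryo with bone (adjusted p = 0.899, limma). Maternal liver of day 20 was above embryo liver by 2.20 ± 0.18 log2 units (SE; limma adjusted p = 6.75e-09), and embryo liver was above whole embryo by 1.25 ± 0.17 (limma adjusted p = 3.36e-06).

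Dhcr7 was likewise highest in the dam, with 10.75 ± 0.22 in maternal liver of day 20 and 11.32 ± 0.23 in maternal liver of day 12, then 9.24 ± 0.09 in whole embryo, 9.22 ± 0.26 in embryo liver and 8.53 ± 0.16 in bone. It was the single probe set of the 7 that differed between the maternal livers, lower at day 20 by -0.56 ± 0.13 (limma adjusted p = 0.0158; 4.47% of all probe sets were called between these strata, 2.48% as lower). Whole embryo and embryo liver did not differ beyond their spread (adjusted p = 0.951, limma).

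Idi1 (1368878_at) averaged 10.99 ± 0.23 in maternal liver of day 12, 10.84 ± 0.51 in maternal liver of day 20, 9.55 ± 0.52 in whole embryo, 9.13 ± 0.63 in embryo liver and 8.99 ± 0.55 in bone. The step from maternal liver to the offspring tissues was 1.38 ± 0.23 (maternal liver of day 20 over whole embryo, limma adjusted p = 2.37e-05), and no neighbours among the offspring tissues differed beyond their spread. The other Idi1 probe set gave 10.09 ± 0.27, 9.86 ± 0.53, 8.96 ± 0.35, 8.47 ± 0.65 and 8.48 ± 0.43 in the same tissues, with the same single step.

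Msmo1 averaged 12.13 ± 0.24 in maternal liver of day 20, 11.85 ± 0.18 in maternal liver of day 12, 10.82 ± 0.54 in embryo liver, 10.20 ± 0.28 in whole embryo and 9.96 ± 0.29 in bone. It stepped down from maternal to embryo liver (1.0 ± 0.19, limma adjusted p = 0.000244) and from embryo liver to whole embryo (0.66 ± 0.19, limma adjusted p = 0.00433). Sqle differed least between tissues, with 10.59 ± 0.33 in maternal liver of day 20, 10.27 ± 0.14 in maternal liver of day 12, 10.26 ± 0.47 in embryo liver, 9.99 ± 0.31 in whole embryo and 9.29 ± 0.31 in bone. Its neighbours in this order differed beyond their spread only between whole embryo and bone (0.64 ± 0.16, limma adjusted p = 0.00231).

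Acat2 had the reverse place of the whole embryo. It averaged 10.92 ± 0.36 in whole embryo, 10.08 ± 0.19 in maternal liver of day 20, 9.97 ± 0.28 in maternal liver of day 12, 9.40 ± 0.42 in bone and 9.20 ± 0.18 in embryo liver. Whole embryo was above maternal liver of day 20 by 0.82 ± 0.20 (limma adjusted p = 0.00128).

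In counts, maternal liver of day 20 was above embryo liver for 6 of 7 probe sets (33% of all probe sets were called in this comparison, 16.6% as higher), and above bone for 7 of 7 (58.1% called, 27.6% higher). Against whole embryo it was higher for 6 and lower for 1, Acat2 (71.1% called, 36.2% higher and 34.9% lower). Maternal liver of day 12 was higher than embryo liver for 6 of 7 (37.8% called, 17.9% higher) and higher than bone for 7 of 7 (56.5% called, 25.5% higher). Against whole embryo it was higher for 5 and lower for 1 (69.8% called, 34.3% higher and 35.5% lower). Embryo liver was higher than bone for 4 (55.2% called, 29.6% higher), and against whole embryo it was higher for 2 and lower for 1 (72.9% called, 39.2% higher and 33.6% lower). Bone was lower than whole embryo for 3 (46.6% called, 26.7% lower). The tissues differ in most genes, and the members' shares are read against those backgrounds.

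**Figure D1:**
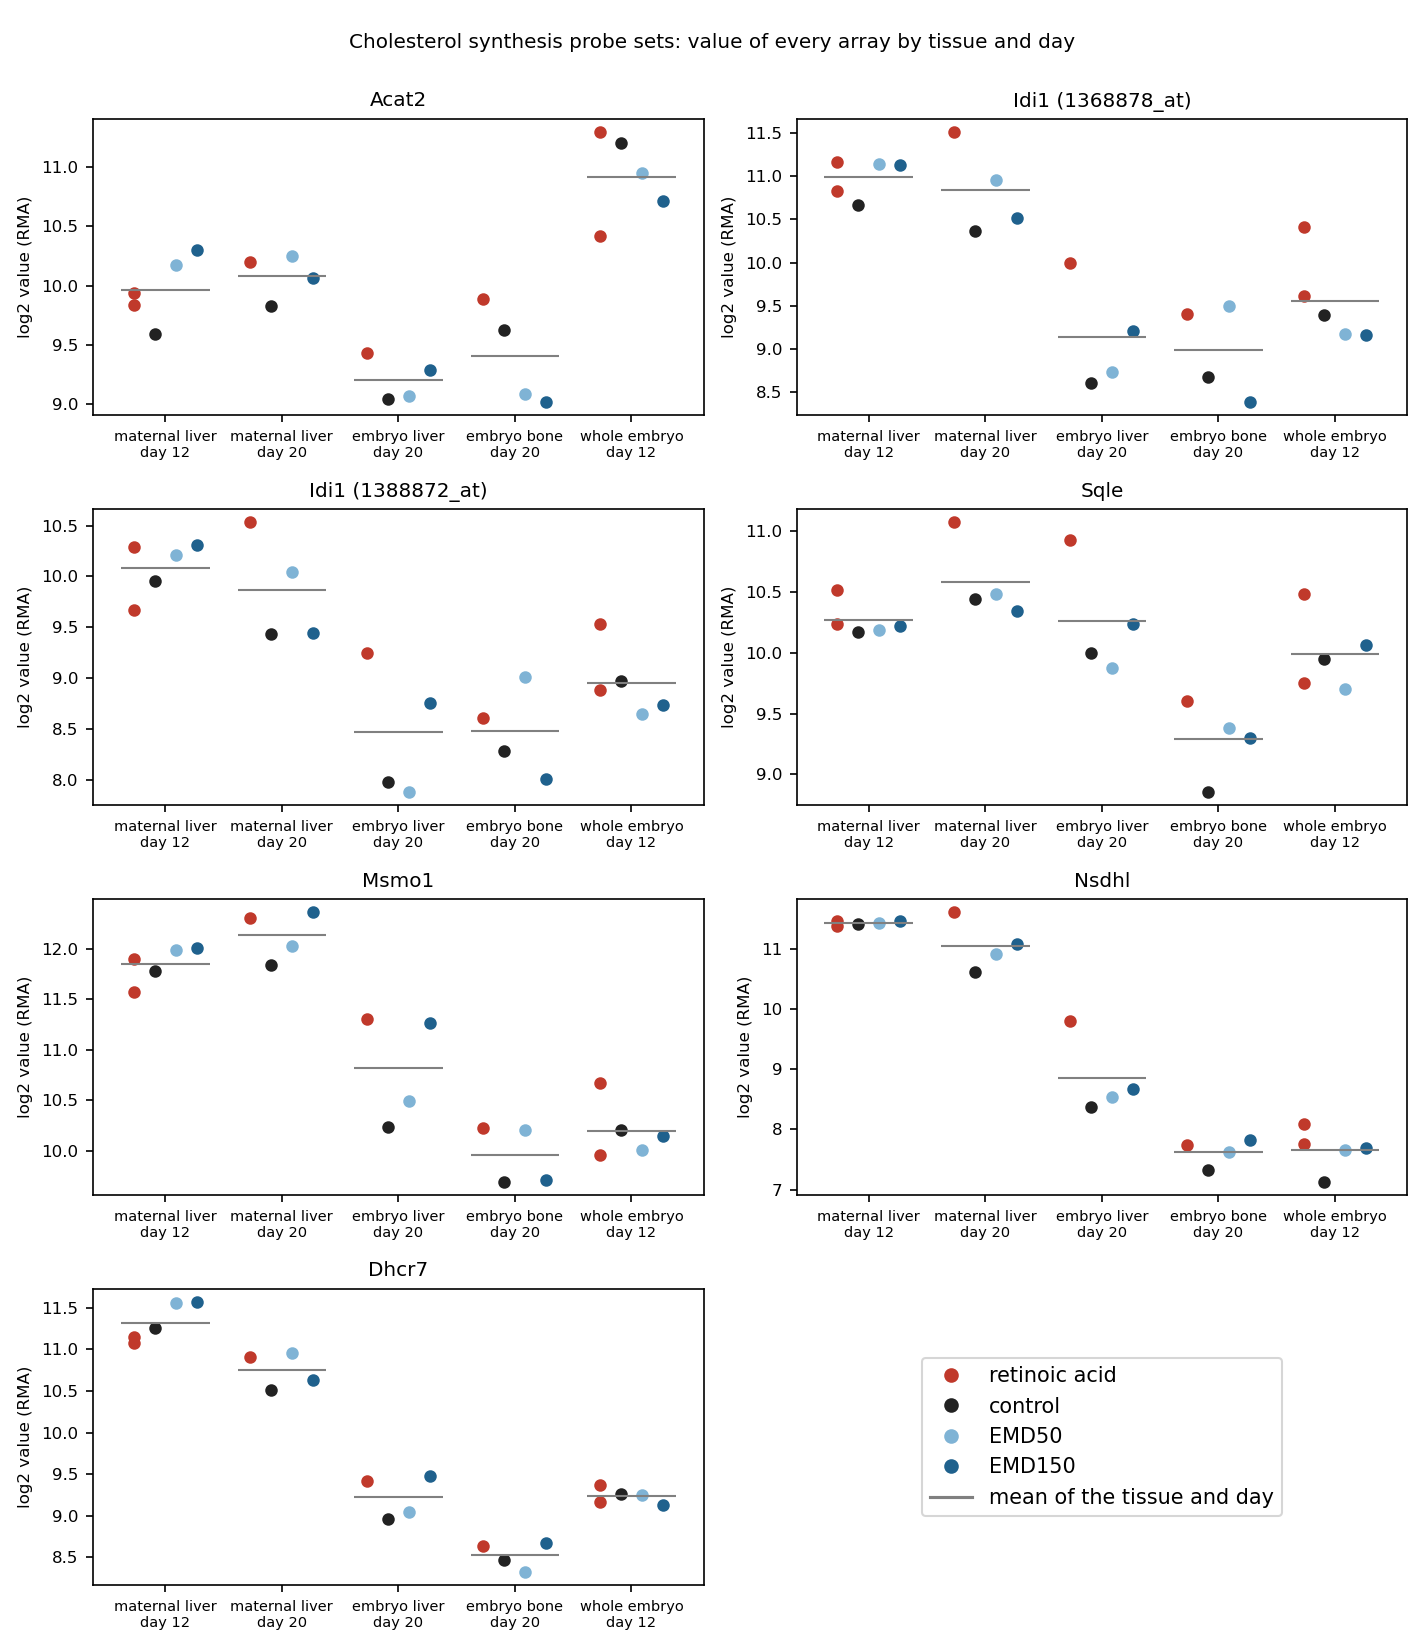
Each panel plots the log2 value (RMA) of 1 probe set on every array, by tissue and day on the horizontal axis, with retinoic acid, control, EMD50 and EMD150 points side by side and a line at the mean of the stratum. Nsdhl, Dhcr7, Idi1 and Msmo1 sit highest in the maternal livers, Acat2 sits highest in whole embryo, and in embryo liver the retinoic acid point is the highest in 6 of the 7 panels.

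The comparison of retinoic acid with control asked which genes the reference teratogen moved. Nsdhl and Idi1 rose over the 5 strata, by 1.59-fold for Nsdhl and by 1.73-fold for Idi1 on 1 of its 2 probe sets, and all 7 probe sets had a difference above 0. For both, the difference from control was greatest in embryo liver. The other 4 enzymes did not pass the test.

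Nsdhl had 9.80 in the retinoic acid embryo liver, 11.60 in maternal liver of day 20, 11.38 and 11.46 in maternal liver of day 12, 7.74 in bone and 7.75 and 8.1 in whole embryo. The controls had 8.37 in embryo liver, 10.61 and 11.41 in maternal liver of days 20 and 12, 7.33 in bone and 7.13 in whole embryo. Retinoic acid arrays were above the control in 4 strata, and in maternal liver of day 12 the 2 arrays lay on both sides of it. The fitted difference was 0.67 ± 0.15 (SE; 95% interval 0.35 to 0.98; limma adjusted p = 0.0317).

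Idi1 (1368878_at) had 9.99 in the retinoic acid embryo liver, 11.51 in maternal liver of day 20, 10.83 and 11.16 in maternal liver of day 12, 9.40 in bone and 9.61 and 10.42 in whole embryo. The controls had 8.60, 10.37, 10.67, 8.66 and 9.39 in the same tissues. Every retinoic acid array was above the control of its stratum, and the difference was 0.79 ± 0.20 (95% interval 0.37 to 1.21; limma adjusted p = 0.0488). The second Idi1 probe set had 9.24, 10.53, 9.67 and 10.29, 8.61, and 8.88 and 9.53 in the same retinoic acid samples, against 7.99, 9.43, 9.95, 8.29 and 8.98 in the controls. Its RA5 arrays at day 12 were both below their controls, and its difference of 0.52 ± 0.22 did not pass the test (limma adjusted p = 0.319). The probe sets of Idi1 therefore differ in the call, while over the 22 arrays their deviations from the stratum means had r = 0.94.

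Sqle had 10.93 in the retinoic acid embryo liver, 11.07 in maternal liver of day 20, 10.24 and 10.52 in maternal liver of day 12, 9.60 in bone and 9.75 and 10.48 in whole embryo. The controls had 9.9995, 10.44, 10.17, 8.86 and 9.95. The RA5 whole embryo was the single retinoic acid array below its control. The difference was 0.48 ± 0.14 (95% interval 0.19 to 0.77) with an adjusted p of 0.0796 in limma, so it did not pass. Leaving out 1 array at a time gave 0.39 to 0.57 with adjusted p from 0.0318 to 0.298 in limma, and the single array without which it passed was the RA5 whole embryo.

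Msmo1 had 11.30 in the retinoic acid embryo liver, 12.30 in maternal liver of day 20, 11.57 and 11.90 in maternal liver of day 12, 10.22 in bone and 9.96 and 10.67 in whole embryo. The controls had 10.23, 11.84, 11.78, 9.69 and 10.20. Both RA5 arrays were below their controls here, and the difference of 0.38 ± 0.16 did not pass (limma adjusted p = 0.325).

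Dhcr7 had 9.42 in the retinoic acid embryo liver, 10.91 in maternal liver of day 20, 11.08 and 11.14 in maternal liver of day 12, 8.64 in bone and 9.17 and 9.37 in whole embryo, against 8.96, 10.51, 11.26, 8.47 and 9.26 in the controls. Acat2 had 9.43, 10.20, 9.84 and 9.93, 9.89, and 10.42 and 11.3 in the same retinoic acid samples, against 9.04, 9.83, 9.59, 9.62 and 11.20 in the controls. The first and the last enzyme of the 6 thus had small differences, 0.14 ± 0.17 for Acat2 (95% interval -0.23 to 0.50; limma adjusted p = 0.837) and 0.14 ± 0.11 for Dhcr7 (95% interval -0.10 to 0.38; limma adjusted p = 0.728).

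In all, 2 of 7 probe sets were called, both as higher, where 1.83% of all 15866 probe sets were called and 1.78% as higher. The median over the 7 was 0.48, and the median over all probe sets was -0.02 with 42.3% above 0. The call of Nsdhl was lost on leaving out 8 of the 22 arrays: the control of bone, embryo liver, maternal liver of day 20 or whole embryo, or the retinoic acid array of bone, embryo liver or maternal liver of day 20, or the RA56 whole embryo. Without these the difference was 0.51 to 0.73, with adjusted p from 0.0561 to 0.127 in limma, and it was 0.51 without the retinoic acid embryo liver. The call of Idi1 was lost without those same arrays and 7 more (difference 0.69 to 0.88, limma adjusted p from 0.0523 to 0.159). Without both RA5 arrays 3 of 7 were called: Nsdhl at 0.77, Idi1 (1368878_at) at 0.96 and Sqle at 0.64 (limma adjusted p = 0.0212, 0.0212 and 0.0211). In that setting 394 of all 15866 probe sets were called.

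**Figure D2:**
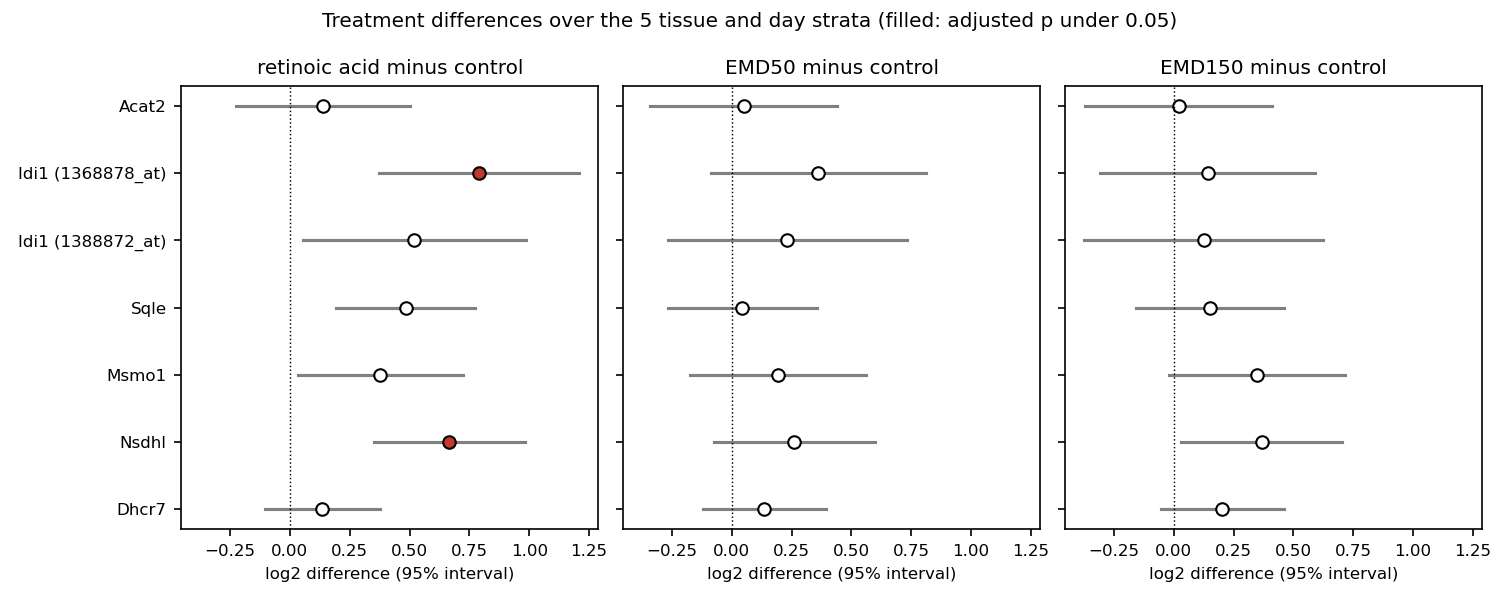
Points are fitted log2 differences from control over the 5 strata and lines are 95% intervals, for retinoic acid, EMD50 and EMD150 from left to right, with probe sets in pathway order and filled points at an adjusted p under 0.05. Only Nsdhl and Idi1 (1368878_at) are filled, both under retinoic acid, and every point of the 3 panels lies above 0.

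In embryo liver, where each treatment has 1 array and the stratum alone allows no test, all 7 probe sets were higher with retinoic acid than in the control. The differences were 1.43 for Nsdhl (2.69-fold), 1.39 and 1.26 for Idi1 (2.63-fold and 2.39-fold), 1.07 for Msmo1 (2.10-fold), 0.93 for Sqle, 0.45 for Dhcr7 and 0.39 for Acat2. Of these, 4 of 7 passed 2-fold, where 0.952% of all probe sets did so in that direction. The median was 1.07, against -0.02 over all probe sets, of which 43.7% were higher. Hepatocyte markers averaged 12.76 in the retinoic acid and 12.75 in the control embryo liver, with 2 of 12 probe sets higher and none past 2-fold. Erythroid markers averaged 13.23 in the retinoic acid and 13.28 in the control embryo liver. Genes of the adult liver averaged 9.01 in the retinoic acid and 8.76 in the control embryo liver, with 6 of 9 probe sets higher and 1 past 2-fold, and 8.79 and 8.77 in the EMD50 and EMD150 embryo livers. All 8 probe sets of proliferation genes were higher in the retinoic acid array, by 0.03 to 0.88 with a median of 0.26. The part of these genes in the result was not tested.

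Whether embryo liver differed from the other strata was tested with a term of its own for the retinoic acid embryo liver array, which is assumed to vary like the other arrays. All 7 terms were above 0, with a median of 0.57, and 0 of 7 passed limma's test (0.0252% of all probe sets were called; 1 member had an unadjusted p under 0.05). Nsdhl had the largest, 0.98 ± 0.24 (95% interval 0.48 to 1.47; unadjusted p = 0.000661 and adjusted p = 0.749, limma). The term was 0.57 ± 0.27 for Sqle (95% interval -0.01 to 1.14) and 0.22 ± 0.38 for Acat2 (95% interval -0.58 to 1.01). A larger effect in embryo liver than elsewhere was therefore not detected for any of the 6 genes. The intervals printed here, of Nsdhl, Sqle and Acat2, all still hold differences above 1.

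In the other strata the differences from control were smaller, and maternal liver of day 20 came nearest. There all 7 probe sets were higher with retinoic acid, with 1.14 and 1.10 for Idi1, 0.99 for Nsdhl, 0.63 for Sqle, 0.46 for Msmo1, 0.40 for Dhcr7 and 0.37 for Acat2. Here 2 of 7 passed 2-fold, both of Idi1, where 1.54% of all probe sets did in that direction. That array also had 9 of 14 skeletal muscle probe sets more than 2-fold above its control and 5 of 10 acinar pancreas probe sets more than 2-fold below it, and their part in these differences was not tested. In maternal liver of day 12 the mean of RA5 and RA56 was above the control for 5 of 7, from -0.15 for Dhcr7 to 0.32 for Idi1 (1368878_at). In bone all 7 were higher, by 0.17 for Dhcr7 to 0.75 for Sqle. That array had lower neural markers. Its adult liver genes averaged 7.25 against 6.80 in the control, with 6 of 9 probe sets higher and 2 past 2-fold. Of fetal liver and yolk sac genes, 1 of 7 probe sets was past 2-fold lower, at -4.76, as was 1 of 7 in EMD50 and in EMD150 bone. The part of these markers was not tested. In whole embryo 6 of 7 were not lower than control, the exception being Acat2 at -0.34, and Nsdhl was highest at 0.79. In the same embryos 12 of 12 hepatocyte probe sets were above the control in RA5 and 10 of 12 in RA56. Past 2-fold were 6 and 5 of them, and their part was not tested.

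The 2 retinoic acid whole embryos differed from each other. RA56 was above RA5 for all 7 probe sets, and RA56 was the highest of the 5 whole embryos in each of them. Sqle for instance had 10.48 in RA56 and 9.75 in RA5, with the control at 9.95 between them. Their markers differed as well. The hepatocyte means of RA56 and RA5 were 9.12 and 9.16, but single genes differed in both directions: Alb had 12.00 and 11.22 in RA56 on its 2 probe sets and 10.19 and 9.03 in RA5, and Apoa1 had 10.35 in RA56 and 11.78 in RA5. RA56 was also higher in the neural mean (8.91 against 8.22), the erythroid mean (10.63 against 9.91) and the proliferation mean (11.56 against 11.18). The part of these in the difference was not tested. In maternal liver of day 12, RA56 was also above RA5 for all 7 probe sets. RA56 and RA5 had for instance 10.29 and 9.67 for Idi1 (1388872_at) there, and 11.14 and 11.08 for Dhcr7. The order thus followed the codes of the titles in both day 12 strata. What the codes stand for is not stated, and all retinoic acid arrays of day 20 are RA56. 

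**Figure D3:**
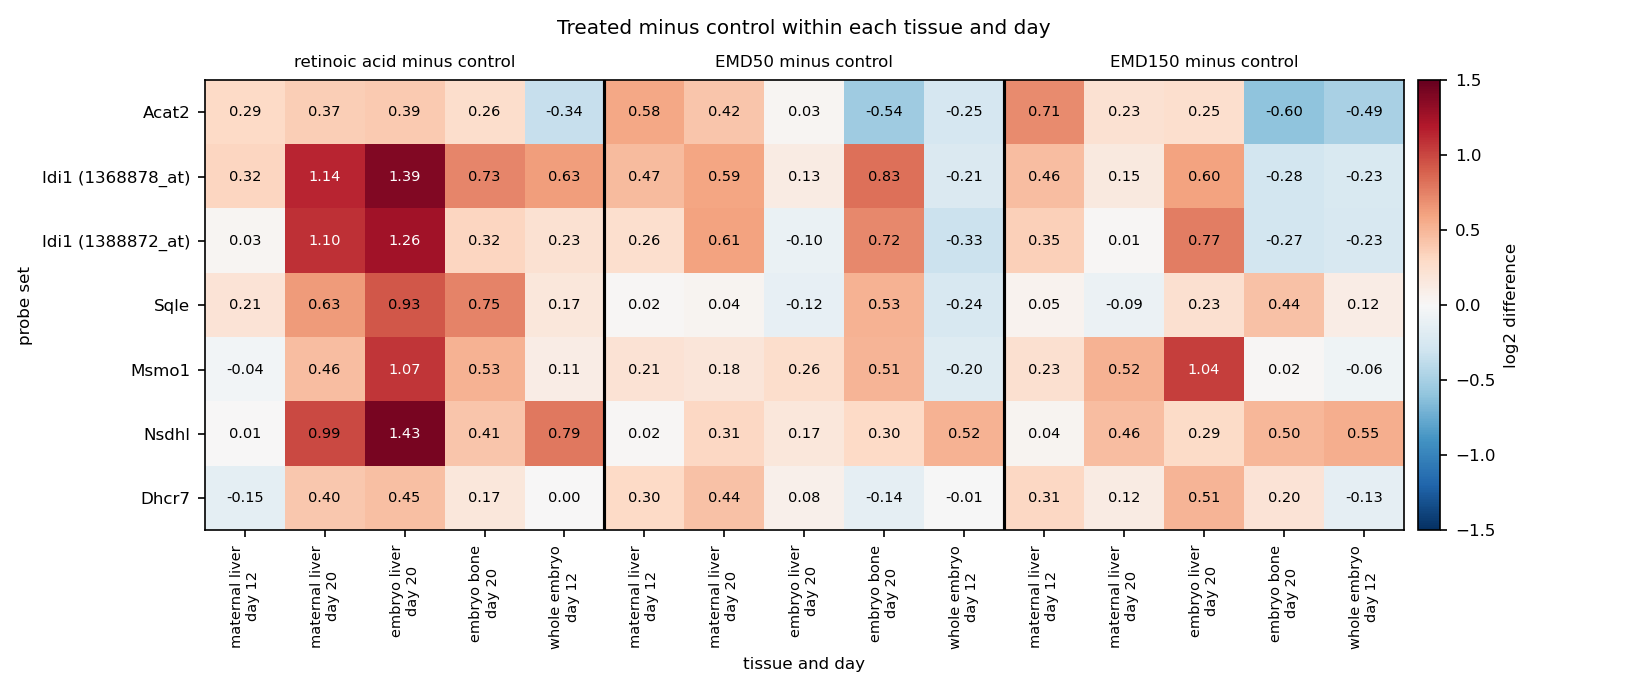
The colour and the number in each cell give the log2 difference from the control array of the same tissue and day, for 7 probe sets in pathway order (rows) and 5 strata under retinoic acid, EMD50 and EMD150 (columns), with the mean of RA5 and RA56 at day 12. The highest values are those of Nsdhl (1.43) and Idi1 (1.39) in embryo liver under retinoic acid, and under EMD150 the single cell above 1 is Msmo1 in embryo liver (1.04).

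Fitted apart, retinoic acid raised Nsdhl in the conceptus (whole embryo, embryo liver and bone) by 0.85 ± 0.20 (95% interval 0.42 to 1.27; limma adjusted p = 0.0426). It was the single call among the 7, where 1.9% of all probe sets were called and 1.81% as higher. The call was lost on leaving out any of 12 arrays (limma adjusted p from 0.0520 to 0.162), among them the retinoic acid embryo liver, without which the difference was 0.58. Without both RA5 arrays Nsdhl and Sqle were called in the conceptus, at 0.93 and 0.74 (limma adjusted p = 0.0391 and 0.0264). In that setting 277 of all probe sets were called. Idi1 (1368878_at) had 0.91 ± 0.26 (adjusted p = 0.102, limma), Sqle 0.57 ± 0.19 (0.175) and Msmo1 0.54 ± 0.22 (0.301) in the conceptus, and Acat2 had 0.04 ± 0.21.

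In maternal liver 0 of 7 were called under retinoic acid (0.0756% of all probe sets were called, all lower), and no member had an unadjusted p under 0.05 in limma. The differences ran from 0.06 ± 0.17 for Dhcr7 to 0.63 ± 0.32 for Idi1 (1368878_at), with a median of 0.37. They rest on single arrays: with 1 array left out, Idi1 ran from 0.29 to 0.82 on this probe set and from 0.027 to 0.72 on the other, and Nsdhl from 0.13 to 0.74. The acinar pancreas mean was 7.49 to 7.71 in the retinoic acid maternal livers, against 10.50 and 9.11 in the controls. The adipocyte mean was 7.13 and 7.01 at day 12 and 7.30 at day 20 with retinoic acid, against 7.75 and 7.47 in the controls. Both means move with this comparison, and their part was not tested. The difference between maternal liver and conceptus was tested directly: 0 of 7 passed limma's test, with values from -0.43 to 0.26, and 0 of all probe sets did. An effect confined to the offspring was thus not shown.

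EMD 82571 was compared with control over the same 5 strata and the same control arrays. At 150 mg/kg/day 0 of 7 probe sets passed limma's test, as did 0% of all, and 1 member (Nsdhl) had an unadjusted p under 0.05 where 2925 of all probe sets had. Nsdhl had 0.37 ± 0.16 (95% interval 0.03 to 0.70; adjusted p = 0.25, limma) and was above the control in all 5 strata at both doses. Msmo1 had 0.35 ± 0.18 (limma adjusted p = 0.289), and the other 5 probe sets lay between 0.02 and 0.20. At 50 mg/kg/day 0 of 7 passed (0% of all), with values from 0.04 for Sqle to 0.36 for Idi1 (1368878_at), and no member had an unadjusted p under 0.05.

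In embryo liver, the values of control, EMD50 and EMD150 were 10.23, 10.49 and 11.27 for Msmo1, 8.60, 8.73 and 9.20 for Idi1 (1368878_at), 7.99, 7.89 and 8.75 for its second probe set, and 8.96, 9.04 and 9.48 for Dhcr7. For Nsdhl they were 8.37, 8.54 and 8.67, for Sqle 9.9995, 9.88 and 10.23, and for Acat2 9.04, 9.07 and 9.29. All 7 were highest at the high dose, above the control with a median of 0.51, and 1 of 7, Msmo1, was past 2-fold, where 0.214% of all probe sets were in that direction. With 1 array a dose there is no replicate check.

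In the other offspring tissues the 7 probe sets did not share a direction. In whole embryo, 1 of 7 was above the control at EMD50 and 2 of 7 at EMD150. Nsdhl was above it at both doses, with 7.13, 7.65 and 7.68 in control, EMD50 and EMD150, and Sqle at the high dose alone, with 9.95, 9.71 and 10.07. Acat2 was lower, with 11.20, 10.95 and 10.72. In bone Acat2 had 9.62, 9.08 and 9.02, and Idi1 (1368878_at) 8.66, 9.49 and 8.38, so that EMD50 alone was raised. That EMD50 bone array is the one with the high GAPDH 3′ minus 5′ difference, and 9 of its 12 hepatocyte probe sets were more than 2-fold below the control, as were 8 of 12 at EMD150; the part of either in these values was not tested.

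Set directly against retinoic acid, EMD150 gave a lower Idi1 (1368878_at) by -0.65 ± 0.20 (95% interval -1.07 to -0.23; limma adjusted p = 0.0392). This was 1 of 7 called, a share near that of all probe sets, of which 14.4% were called and 7.89% as lower. EMD150 and retinoic acid stood at 8.38 and 9.40 in bone, 9.20 and 9.99 in embryo liver, and 10.52 and 11.51 in maternal liver of day 20, with EMD150 lower in each. In whole embryo EMD150 had 9.16 against 9.61 and 10.42, and in maternal liver of day 12 it had 11.14, between the retinoic acid values of 10.83 and 11.16. The call was lost on leaving out any EMD150 array but that of maternal liver of day 12, or the retinoic acid array of bone, embryo liver or maternal liver of day 20, or the RA56 whole embryo (difference -0.73 to -0.52, limma adjusted p from 0.056 to 0.131). The second Idi1 probe set was not called. Nsdhl had -0.30 ± 0.15 (limma adjusted p = 0.165) and Sqle -0.33 ± 0.14 (limma adjusted p = 0.101), while Msmo1, Dhcr7 and Acat2 had -0.03, 0.07 and -0.12. Without both RA5 arrays Idi1 (1368878_at) had -0.82 and Sqle -0.49, and both were called (limma adjusted p = 0.0109 and 0.00992). The second Idi1 probe set had -0.59 there and was not called (limma adjusted p = 0.0524). In that setting 3597 of all probe sets were called, so calls were common among all genes.

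Maternal liver by dose of EMD 82571 rested on 1 array per dose and day, with both days as the repeats. No probe set of the 7 changed with dose by limma's test. The values for control, EMD50 and EMD150 were 9.59, 10.18 and 10.30 at day 12 and 9.83, 10.25 and 10.06 at day 20 for Acat2. Both doses were above the control on both days for this gene, and the order of the doses was not the same on the 2 days.

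For Idi1 (1368878_at) the values at control, EMD50 and EMD150 were 10.67, 11.15 and 11.14 at day 12, and 10.37, 10.96 and 10.52 at day 20. For its second probe set they were 9.95, 10.21 and 10.31 at day 12, and 9.43, 10.04 and 9.45 at day 20. Idi1 was above the control at both doses, and at day 20 the low dose stood higher than the high dose. Dhcr7 had the same shape, with 11.26, 11.55 and 11.56 at day 12 and 10.51, 10.95 and 10.63 at day 20.

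Msmo1 had 11.78, 11.99 and 12.01 at day 12 and 11.84, 12.02 and 12.36 at day 20, and Nsdhl had 11.41, 11.43 and 11.45 at day 12 and 10.61, 10.92 and 11.07 at day 20. These probe sets were ordered by dose on both days, though the Nsdhl values of day 12 lay within 0.04 of the control. Sqle was level, with 10.17, 10.19 and 10.22 at day 12 and 10.44, 10.48 and 10.35 at day 20.

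In the fit of maternal liver, EMD50 was above control for 7 of 7 (median 0.37; 52.3% of all probe sets were above it), led by Idi1 (1368878_at) at 0.53 ± 0.34, Acat2 at 0.50 ± 0.27 and Dhcr7 at 0.37 ± 0.18. EMD150 was above control for 6 of 7 (median 0.25; 54.0% of all), led by Acat2 at 0.47 ± 0.27 (95% interval -0.10 to 1.04) and Msmo1 at 0.38 ± 0.28. None was called in either comparison, as was 0% of all probe sets, and no member had an unadjusted p under 0.05 in limma, where 142 of all probe sets had at EMD50 and 202 at EMD150. Between the doses, EMD150 minus EMD50 ran from -0.25 ± 0.40 for the second Idi1 probe set to 0.18 ± 0.28 for Msmo1, with 0 of 7 called (0% of all; 458 of all at an unadjusted p under 0.05). The 95% intervals were -1.09 to 0.59 and -0.42 to 0.78 for these.

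The acinar pancreas markers moved with the dose comparison in the same livers. Their mean was 10.50, 9.77 and 7.54 at control, EMD50 and EMD150 of day 12 and 9.11, 7.73 and 7.75 at day 20, with 9 of 10 probe sets at EMD150 more than 2-fold below the control at day 12 and 5 of 10 at day 20. Adipocyte means at control, EMD50 and EMD150 were 7.75, 6.94 and 7.04 at day 12 and 7.47, 7.03 and 7.05 at day 20. Erythroid means were 9.81, 9.17 and 9.23 at day 12, and went the other way at day 20 with 8.98, 9.47 and 9.38. Hepatocyte means over the same 6 arrays stayed between 12.84 and 13.10. The part of any of these in the enzymes' values was not tested. EMD150 in maternal liver minus EMD150 in the conceptus was tested as well, and 0 of 7 passed (0% of all probe sets). The values ran from -0.29 to 0.75, the highest being that of Acat2.

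**Figure D4:**
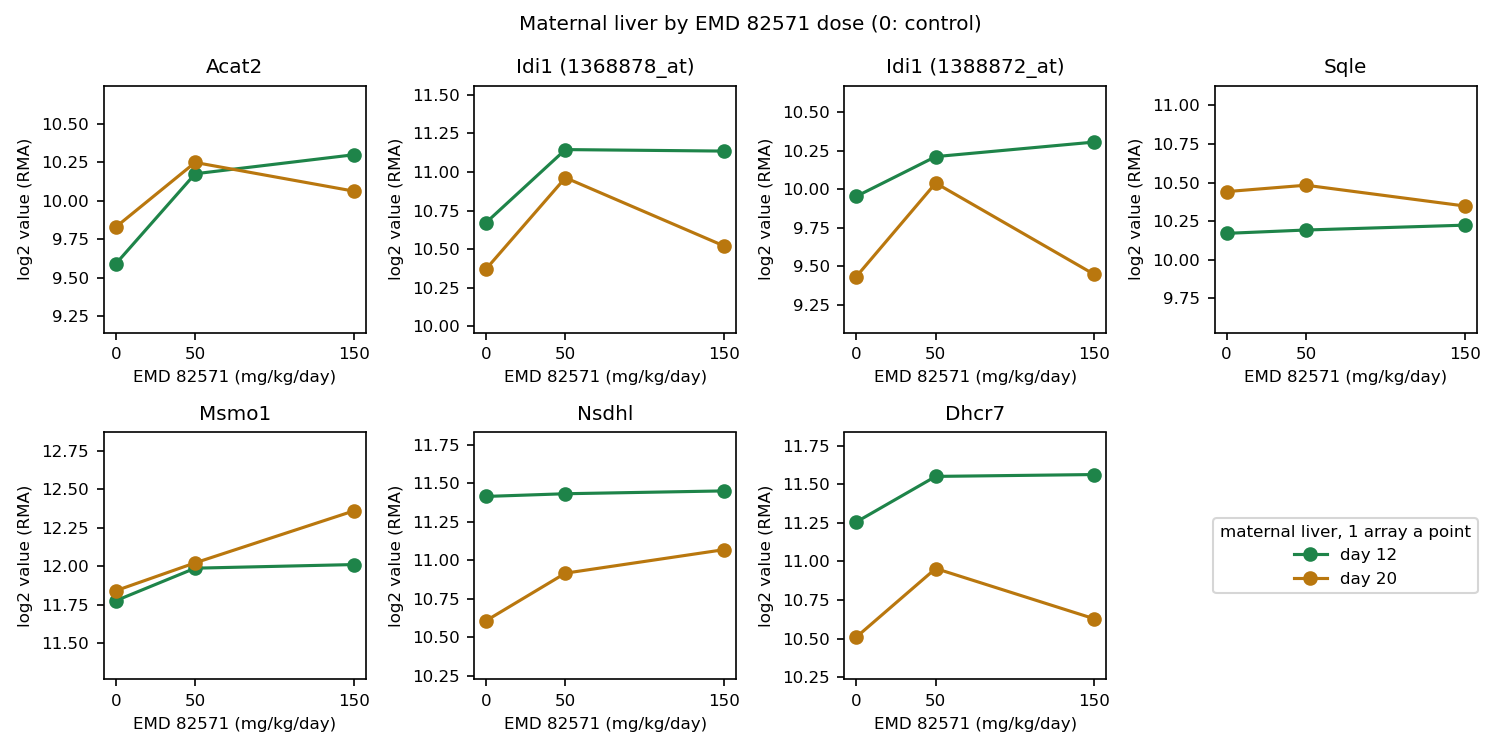
Log2 values (RMA) of the 7 probe sets in maternal liver against the dose of EMD 82571 in mg/kg/day (0 is the control), 1 array a point, with lines joining the arrays of day 12 and of day 20 and the same span on each vertical axis. Nsdhl and Msmo1 are ordered by dose on both days, and Idi1 and Dhcr7 of day 20 are highest at 50 mg/kg/day.

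The rest of the pathway was read from a list of 16 genes, of which 12 had probe sets matched here (19 probe sets). The other 4 were not analysed here. Under retinoic acid over all strata 8 of 19 were above 0 (42.3% of all probe sets were) with a median of -0.04, 0 of 19 were called by limma, and 2 had an unadjusted p under 0.05. Those were Cyp51, the lanosterol demethylase, with 0.46 ± 0.20 on 1 of its probe sets (adjusted p = 0.325, limma), and Ebp, the sterol isomerase, with 0.40 ± 0.13 (adjusted p = 0.123, limma). The other Cyp51 probe set had 0.16 ± 0.17, and Sc5d, the sterol desaturase, had 0.21 ± 0.14 and 0.29 ± 0.14. In the embryo liver term of the retinoic acid effect 18 of 19 were above 0 with a median of 0.17 and 0 called, where 49.7% of all probe sets were above 0. In maternal liver, 17 of 19 were above control at EMD50 and 16 of 19 at EMD150, with medians of 0.12 and 0.09 and 0 called, where 52.3% and 54.0% of all probe sets were. Ebp at EMD150 had 0.64 ± 0.21 (unadjusted p = 0.0079, adjusted p = 1, limma).

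**Figure D5:**
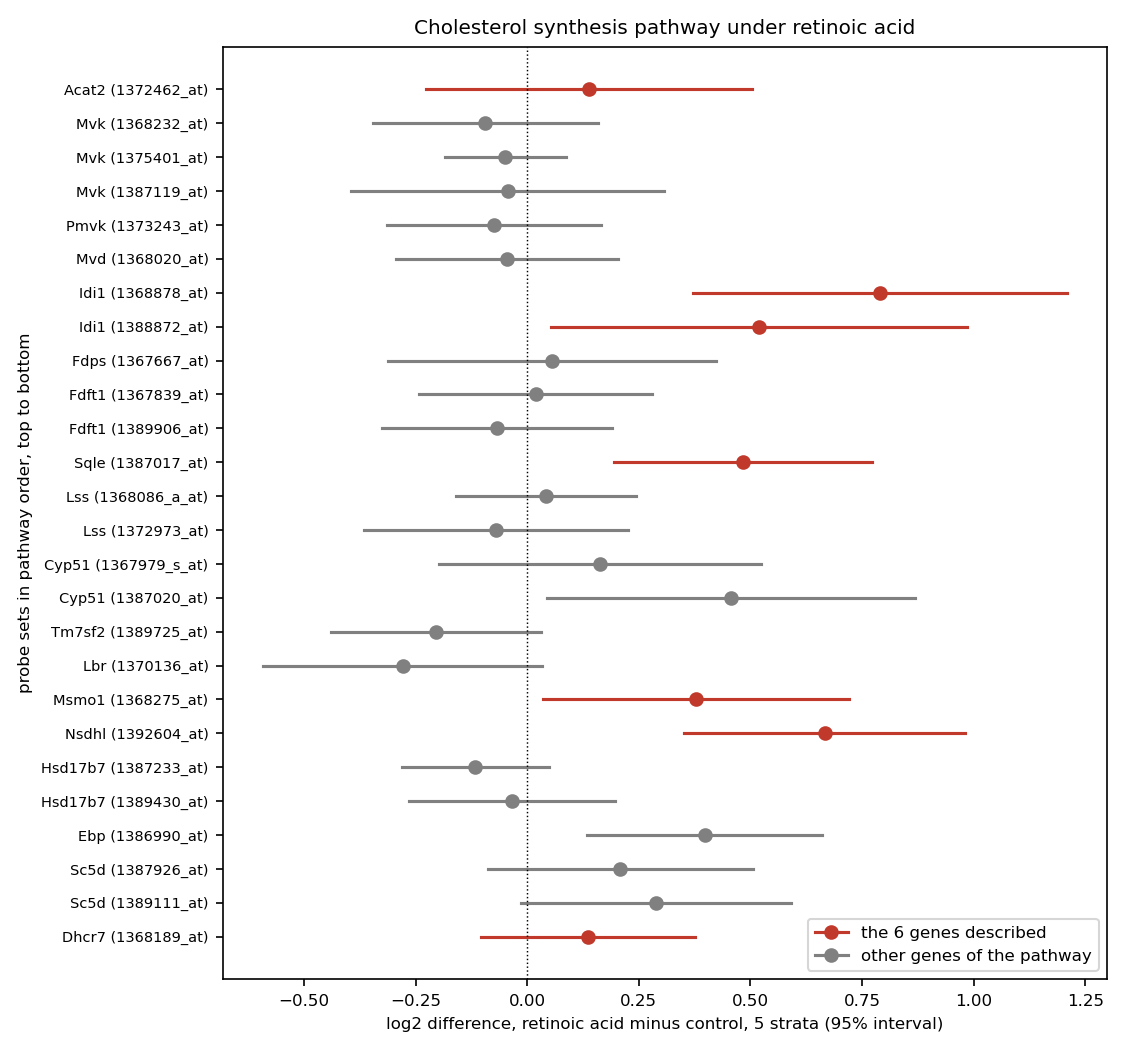
Fitted log2 differences of retinoic acid minus control over the 5 strata, with 95% intervals, for 26 probe sets of the pathway from its start (top) to its end, the 6 described genes in red and the other 12 in grey. The red points of Idi1, Sqle, Msmo1 and Nsdhl lie at 0.38 or above and those of Acat2 and Dhcr7 at 0.14, the red genes having been picked with earlier results known, and among the grey points 1 Cyp51 probe set and Ebp lie at 0.46 and 0.40.

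Of the genes that govern sterol supply, 14 probe sets of 11 genes were measured, and 0 were called under retinoic acid against control. Srebf2 had 0.01 ± 0.08 and -0.09 ± 0.06 on its 2 probe sets, and Insig1, which holds the SREBP complex in the endoplasmic reticulum, had 0.20 ± 0.15 (limma adjusted p = 0.691). Of genes for sterol disposal, 2 of 12 probe sets were above 0 and 0 were called, where 42.3% of all probe sets were above 0. Of fatty acid synthesis genes, 19 of 24 probe sets were above 0 and 1 was called, Lpin1, a phosphatidate phosphatase, at 0.49 ± 0.12 (limma adjusted p = 0.0413). EMD150 minus retinoic acid gave calls for Lpin1 (-0.48 ± 0.12, limma adjusted p = 0.0194), the elongase Elovl5 (-0.51 ± 0.12, 0.0169), the ubiquitin ligase Mylip (-0.60 ± 0.17, 0.0306), the sterol exporter subunit Abcg5 (0.66 ± 0.17, 0.0221) and 1 probe set of Srebf2 (0.20 ± 0.06, 0.0361). By list these are 2 of 14 probe sets of sterol regulation, 1 of 12 of disposal, 2 of 24 of fatty acid synthesis and 0 of 19 of the other synthesis genes, where 14.4% of all probe sets were called.

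The members also varied together within tissues. Over the deviations of 22 arrays from their stratum means, Pearson's r between the 15 pairs of genes ran from 0.19 (Nsdhl with Acat2) to 0.81 (Idi1 with Sqle), with a median of 0.59. Idi1, Sqle, Msmo1 and Nsdhl had r of 0.61 to 0.81 with each other, and Acat2 had 0.59 or less with every other gene. The arrays share 5 stratum means and single controls, so these are descriptions and carry no p-value. The genes were picked with earlier results of these data known, and the deviations still hold the treatment differences. A high r among them can thus be partly built in, and no r of pairs of other genes is given beside it. The mean profile of the 6 genes, in units of each gene's SD, was highest in the retinoic acid embryo liver (1.78), the RA56 whole embryo (1.41), the retinoic acid maternal liver of day 20 (1.14) and the retinoic acid bone (0.90). It was lowest in the control embryo liver (-1.27) and the control maternal liver of day 20 (-1.03), and it was also below 0 in both RA5 arrays (-0.60 in whole embryo and -0.63 in maternal liver).

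Ranked by r with that profile among 12776 other probe sets of single genes, the 10 most alike were Kpna1, Bccip, Sult2a6, Rab14, Ppp4r3b, Idh1, Adrm1, Xpo1, Dusp6 and Cops9, with r from 0.80 to 0.82 over 22 arrays. None belongs to the lists used here. Of the other synthesis genes, Cyp51 stood at ranks 21 and 116 (r = 0.78 and 0.72). The median r was 0.28 for the other synthesis genes, 0.15 for fatty acid synthesis, -0.05 for sterol regulation, -0.16 for sterol disposal and -0.03 for all these probe sets.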

How the data were processed

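The 22 arrays are single-colour expression arrays, 1 per sample. The authors deposited log2 values per probe set from RMA, per the submitters' processing notes. The version of RMA, and whether it was run on all arrays at once, are not stated. Of 15923 rows, 57 array controls were left out and 15866 probe sets were tested without a filter. Gene symbols came from the probe table, updated through Entrez identifiers: 12783 probe sets had 1 symbol, 312 several and 2771 none. Names and promoter sequences are those of RefSeq, assembly GRCr8.

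Linear models came from limma 3.58.1 (R 4.3.3), with lmFit and an eBayes variance prior that follows intensity. Two-sided p-values were adjusted after Benjamini and Hochberg over all probe sets of each comparison, and an adjusted p under 0.05 was a call. The additive model (stratum and treatment) left 14 residual degrees of freedom, the model with separate effects in maternal liver and conceptus 11, and the model with a term for the retinoic acid embryo liver 13. There were 12 treatment comparisons and 10 comparisons of levels. All arrays shared 1 estimate of the spread, so single arrays are assumed to vary alike, and the number of arrays limits the precision. Where a group has 1 array, folds of 2 or more are counted without a test. The script was tested on simulated data.

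The 6 genes and the lists of other genes were chosen with earlier results of these data known. The named genes are the 6 members, list genes called in a treatment comparison, Srebf2 and Insig1, plus the 10 probe sets most like the members' mean profile; other genes that rule holds are not reported here. Cyp51, Ebp and Sc5d were named after their values were seen. Alternatives were no trend, quantile normalization on top, a filter on dim probe sets, 1 mean per gene, leaving out arrays or strata, and maternal liver arrays alone.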

Additional observations from a re-analysis of the deposited data

How the results depend on the processing

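No paired analysis was possible because the labels give no replicate numbers shared between treatments. The tested comparisons of EMD50 or EMD150 with control, of the doses in maternal liver, of retinoic acid in maternal liver, and of the 3 differences between tissues stayed at 0 of 7 calls in every alternative. The 70 comparisons of levels had 44 to 52 calls over the alternatives that keep all strata, and 48 to 52 with 1 array left out. Leaving out the maternal liver of day 12 or 20, the embryo liver or both RA5 arrays was chosen after seeing the data.

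For retinoic acid against control the count of 2 became 1 without the intensity trend and with 1 mean per gene. It became 0 with quantile normalization, without embryo liver and without maternal liver of day 20. It was also 0 without 3 retinoic acid arrays (bone, maternal liver of day 20, RA56 whole embryo). The count was 3 without both RA5 arrays and 0 to 3 with 1 array left out. Those 3 arrays were picked for signal of other tissues, which does not set them apart from all the arrays kept. The RA5 whole embryo was kept, with 6 of 12 hepatocyte probe sets more than 2-fold above control, against 5 of 12 in RA56. The bone array had 0 of 12 such hepatocyte probe sets and 2 of 9 of adult liver genes. In the conceptus the count of 1 became 2 without the EMD50 bone array or both RA5 arrays and 0 with quantile normalization, without those 3 arrays, and without either maternal liver day or embryo liver, and was 0 to 2 with 1 array left out. For EMD150 against retinoic acid the count of 1 became 2 without both RA5 arrays and 0 with quantile normalization, 1 mean per gene, without the 3 arrays, and without embryo liver or maternal liver of day 20, and was 0 to 2 with 1 array left out. The cause of these changes was not tested. Over all probe sets, leaving out both RA5 arrays gave 394, 277 and 3597 calls in these comparisons, in that order. Without the 3 arrays the retinoic acid comparison tested fewer samples and called 0 of all probe sets, and Nsdhl and Idi1 had 0.63 and 0.60.

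No called value changed sign. Values near 0 that did were as follows. Acat2 under retinoic acid was -0.10 over all strata and -0.30 in the conceptus without the 3 arrays, and -0.13 in the conceptus without embryo liver. Under EMD150 and without embryo liver, Idi1 (1388872_at) was -0.036 and Acat2 -0.037. Sqle at EMD50 was -0.029 without the EMD50 bone array. For EMD150 minus retinoic acid, Msmo1 was 0.18 and Acat2 0.020 with quantile normalization, and 0.12 and 0.12 without the 3 arrays. With quantile normalization in maternal liver, Sqle was -0.058 at EMD50 and 0.034 at EMD150, EMD150 minus EMD50 was 0.092 for Sqle, 0.014 for Dhcr7 and 0.10 for Acat2, and Dhcr7 under retinoic acid was -0.057; without the 3 arrays it was -0.15. Without maternal liver of day 12, Acat2 was -0.15 at EMD150 and -0.085 at EMD50 over all strata, and Dhcr7 -0.066 for EMD150 minus retinoic acid (-0.000904 without both RA5 arrays). Without maternal liver of day 20, Acat2 was -0.033 at EMD150 and -0.043 at EMD50 over all strata. In maternal liver this setting gave Sqle 0.053 at EMD150, EMD150 minus EMD50 of 0.094 for Idi1 (1388872_at), 0.031 for Sqle, 0.012 for Dhcr7 and 0.12 for Acat2, and under retinoic acid -0.041 for Msmo1 and -0.15 for Dhcr7. The retinoic acid effect in maternal liver minus conceptus turned without maternal liver of day 12, to 0.15 for Nsdhl, 0.23 and 0.51 for Idi1, 0.068 for Sqle and 0.21 for Dhcr7. For Idi1 (1388872_at) it was 0.13 without embryo liver and 0.0030 without both RA5 arrays. The EMD150 effect in maternal liver minus conceptus turned to 0.015 for Nsdhl, -0.073 for Idi1 (1388872_at) and -0.077 for Dhcr7 without maternal liver of day 12, to -0.13 for Msmo1 and -0.057 for Dhcr7 with quantile normalization, and to -0.096 for Msmo1 without maternal liver of day 20.

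With 1 array left out in turn, signs also turned in these ranges. Over all strata at EMD150, Idi1 (1388872_at) ran from -0.0013 to 0.25 and Acat2 from -0.10 to 0.14; at EMD50, Sqle from -0.041 to 0.13 and Acat2 from -0.048 to 0.16; and for EMD150 minus retinoic acid, Msmo1 from -0.13 to 0.083. In maternal liver at EMD50, Nsdhl ran from -0.14 to 0.47 and Sqle from -0.035 to 0.098. At EMD150 Nsdhl ran from -0.056 to 0.55, Idi1 from -0.032 to 0.64 and -0.25 to 0.62, Sqle from -0.18 to 0.14 and Dhcr7 from -0.014 to 0.44. For EMD150 minus EMD50, Nsdhl ran from -0.030 to 0.20, Idi1 from -0.56 to 0.11 and -0.69 to 0.19, Sqle from -0.21 to 0.11, Dhcr7 from -0.38 to 0.070 and Acat2 from -0.26 to 0.20. Under retinoic acid, Dhcr7 ran from -0.15 to 0.17 in maternal liver and Acat2 from -0.14 to 0.25 in the conceptus. For maternal liver minus conceptus, the retinoic acid effect on Idi1 (1388872_at) ran from -0.56 to 0.13. The EMD150 effect ran from -0.50 to 0.11 for Nsdhl, -0.063 to 0.61 and -0.34 to 0.53 for Idi1, -0.16 to 0.30 for Msmo1 and -0.21 to 0.24 for Dhcr7.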
